A study of Solanum virginianum with 36 samples.

Results

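A module of 150 leaf genes was chosen for a pattern that ran in opposite order in a pair of eggplant lines. Its genes were higher at 12 h than at 8 h of thrips feeding in a thrips-resistant line, and higher at 8 h than at 12 h in a thrips-susceptible line. The candidates were 14949 genes whose mean in each line reached 2 CPM (estimated counts relative to library size, scaled by TMM), out of 85443 gene IDs in the count table, 33340 of them with a count. For each gene the score was the smaller of the resistant difference (12 h minus 8 h) and the susceptible difference (8 h minus 12 h), from group means of log2(CPM + 1). Only the 6166 genes whose resistant 8 h mean lay within the range of the resistant 0, 24 and 48 h means were ranked, and 1862 of these had a score above 0. The 8 and 12 h values of both lines therefore chose the genes and are given as a description, without a test. The remaining 5 groups (resistant 4 h; susceptible 0, 4, 24 and 48 h) set neither score nor range and counted only towards the floor of 2 CPM, which 147 of the 150 genes also reached without them.

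Leaves were sampled at 0, 4, 8, 12, 24 and 48 h of feeding by thrips, with 3 libraries per line and time and 36 in all. The labels call the libraries biological replicates and do not say whether they came from separate plants. All plants grew in a greenhouse under long days and were sampled 1 week after transplanting, and every group carries the treatment label thrips feeding, the 0 h groups included. The samples are labelled Solanum virginianum, although the labels also speak of eggplants, and the gene IDs begin with Sme2.5. No unfed groups at later hours were analysed here, so feeding time and hour of the day cannot be told apart.

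Thrips pierce leaf cells and suck them empty. Plants are known to answer such feeding mainly through jasmonate signalling, with salicylate and ethylene also involved, and these hormones switch defence genes on in waves after attack. Leaf transcripts also follow light and the circadian clock over the day. The files give IDs without names or descriptions, so no function is given here for any gene of the module.

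Depth ran from 30629392 to 42391553 estimated counts per library over rows with an ID. Resistant 48 h replicate 3 was looked at separately. It held counts of 109 of 156 IDs that were nearly absent from the other resistant libraries (3 counts or fewer) but reached 5 CPM in the susceptible line; the median was 1.24% of the level there. These IDs were picked by the other resistant libraries and the susceptible line. The same count is not given for any other library, so it is not shown that this one stood apart. Replicate 3 counted in the range and in the floor on CPM, and without it 133 of the 150 genes were chosen again.

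Scores ran from 0.52 to 2.02 on the log2 scale, with a median of 0.68. The resistant 12 h mean stood above the 8 h mean by a median of 0.85 on the log2 scale, with a range of 0.53 to 3.06. In the susceptible line 8 h stood above 12 h by a median of 0.78, with a range of 0.52 to 2.97. Differences were thus moderate in most genes. They reached 1 on the log2 scale in 55 genes in the resistant line, in 30 in the susceptible line and in 17 in both. The boundary was not a natural gap, since the last gene inside had a score of 0.5216 and the first outside had 0.5211. All 3 libraries of the higher time lay above all 3 of the lower time in both lines in 66 genes. This condition held for 3.76% of the 14949 genes, and nothing is read from that contrast because the rule used it. In the same population, 471 genes had a score above 0.5 without the range condition. The exchanged pattern (resistant 8 h and susceptible 12 h higher) passed 0.5 in 537, a rise from 8 to 12 h in both lines in 393 and a fall in both lines in 217.

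**Figure D1:**
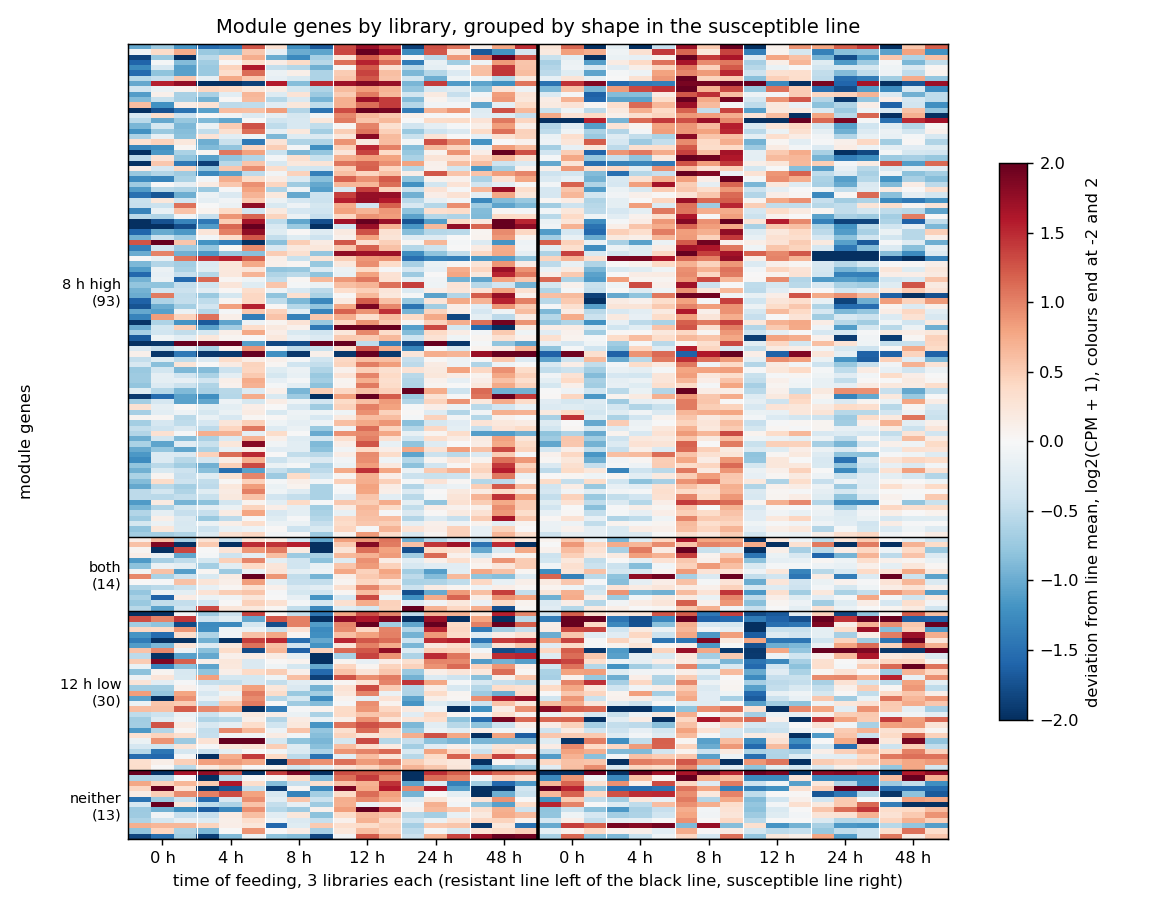
Each row is 1 of the 150 module genes and each column 1 of 36 libraries; colour gives the deviation of log2(CPM + 1) from the gene's mean over its line. Red columns stand at 12 h in the resistant and at 8 h in the susceptible line, which the rule fixed, while single libraries at other times are also red or blue across many genes.

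The gene named for the clearest pattern, by highest score among genes without overlap in either line, was Sme2.5_00367.1_g00003. In the resistant line its libraries were at 11.2, 22.3 and 14.5 CPM at 12 h and at 3.30, 1.42 and 1.31 CPM at 8 h. In the susceptible line they were at 12.7, 6.15 and 14.6 CPM at 8 h and at 1.37, 5.43 and 3.76 CPM at 12 h. Outside these times it was at 3.55 to 7.09 CPM at 0 h and at 0.487 to 2.81 CPM at 48 h in the resistant line. At 24 h its resistant libraries were at 1.01, 10.4 and 4.59 CPM. The 12 h libraries were above all others of that line, though 24 h replicate 2 came close to the lowest of them. In the susceptible line 1 library at 4 h reached 15.2 CPM, above every 8 h library.

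The next such gene, Sme2.5_00946.1_g00008, was at 17.0, 33.4 and 25.2 CPM at 12 h and at 6.52, 5.17 and 8.43 CPM at 8 h in the resistant line. Its susceptible libraries were at 58.7, 34.2 and 40.1 CPM at 8 h and at 9.89, 22.0 and 19.0 CPM at 12 h. This gene was higher again in the resistant line at 48 h, with 30.7, 63.2 and 35.9 CPM, while the susceptible 48 h libraries held 18.3, 7.64 and 18.9 CPM. The resistant 12 h rise of this gene was thus not its highest point, whereas 8 h was its highest point in the susceptible line.

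**Figure D2:**
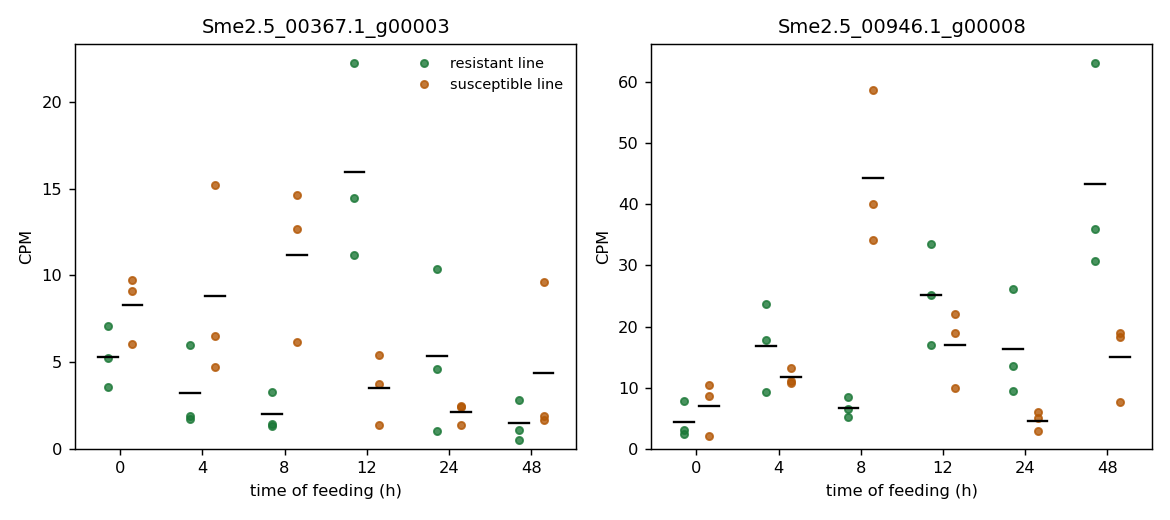
Points are the CPM of single libraries against feeding time for the 2 module genes with the highest score among those without overlap, and bars are group means (n = 3). Resistant points at 12 h lie above those at 8 h and susceptible points at 8 h lie above those at 12 h in both genes, which chose them; the second gene is highest at 48 h in the resistant line.

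The rule did not fix whether 8 h was high or 12 h was low in the susceptible line. In 93 of the 150 genes the 8 h mean lay above the susceptible 0, 24 and 48 h means while 12 h was not below them. In 30 genes 12 h lay below those means while 8 h was not above them, in 14 genes both held and in 13 neither. Among all 3433 genes that met the range condition and had a susceptible 8 h mean above 12 h, the shares of these shapes were 38.0, 25.3, 5.88 and 30.8%. A larger difference between 8 and 12 h makes it easier to leave the range, so these shares set no expectation for the module. The susceptible 8 h mean was the highest of the 6 times in 102 genes (68.0%), against 37.8% of the same 3433 genes, with the same limit.

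Genes of the 93 had a median deviation from the line mean of 0.80 at 8 h, against -0.02 at 12 h, -0.24 at 0 h and -0.43 at 24 h (log2). The 30 genes with a low 12 h mean had a median of 0.09 at 8 h and -0.74 at 12 h, with 0.36 at 0 h and 0.40 at 48 h. The module thus held genes with a high 8 h value and, in smaller number, genes with a low 12 h value.

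In the resistant line 8 h was tied to the range of 0, 24 and 48 h by the rule. The 12 h mean lay above that range in 98 genes (65.3%) and within it in 52. It was the highest of the 6 resistant means in 85 genes (56.7%). Of the 3030 genes that met the range condition and were higher at 12 h than at 8 h, these shares were 43.1 and 37.9%. The time of the lowest mean was 0 h in 89 genes (59.3%), 48 h in 28 (18.7%), 24 h in 24 (16.0%) and 4 h in 9 (6.0%). Among the 1862 genes with a score above 0 these shares were 52.8, 14.4, 21.5 and 11.2%. In the 52 genes with 12 h inside the range, the median deviation was 0.42 at 12 h and 0.59 at 48 h, so the 48 h median was the higher one there. Both a resistant 12 h mean above its range and a high 8 h mean in the susceptible line were present in 63 of the 150 genes (42.0%). That held for 26.4% of the 1862 genes. Larger differences make it easier to leave the range, so these shares set no expectation for the module.

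The 4 h groups set neither the score nor the range. The resistant 4 h mean lay between the 8 and 12 h means in 92 genes (61.3%). This share was 39.01% among the 3030 genes that met the range condition and were higher at 12 h than at 8 h. A larger difference between 8 and 12 h makes it easier to lie between them, so that share sets no expectation for the module. The resistant 4 h mean was nearer to 12 h than to 8 h in 60 of the 150 genes. The share for nearness was 41.9% among the same 3030 genes, so the count of 60 was near the background. In the susceptible line the 4 h mean was nearer to 8 h than to 12 h in 39 genes (26.0%), against 44.7% of the 3433 genes described above. The 8 and 12 h means on which nearness rests were chosen by the rule, so no test is given.

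The median over the module in each library shows how these means arose. It is given as the deviation from the mean of the line on the log2(CPM + 1) scale. The resistant 8 h libraries were at -0.08, -0.21 and -0.63 and those at 12 h at 0.42, 0.91 and 0.59. The susceptible 8 h libraries were at 0.87, 0.35 and 0.72 and those at 12 h at -0.42, 0.07 and -0.00. The groups did not overlap, as the choice of genes fixed. Among the groups outside score and range, resistant 4 h and susceptible 0 h spread more widely than any 8 or 12 h group. The resistant 4 h libraries stood at -0.44, 0.05 and 0.46, with 31, 84 and 112 of the 150 genes above their line mean. The susceptible 0 h libraries stood at -0.25, 0.32 and -0.43, with 45, 111 and 43 genes above it. The range over the 3 resistant 4 h libraries was 0.89, beside a difference of 0.95 between the resistant 12 and 8 h group means of this measure and 0.76 between the susceptible 8 and 12 h means. The range was 0.75 in the susceptible 0 h group, against 0.49 to 0.56 in the 8 and 12 h groups of both lines. The susceptible 4, 24 and 48 h groups spread less, with ranges of 0.42, 0.31 and 0.10. In all 36 libraries the corresponding median over the 14949 genes lay between -0.02 and 0.03.

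**Figure D3:**
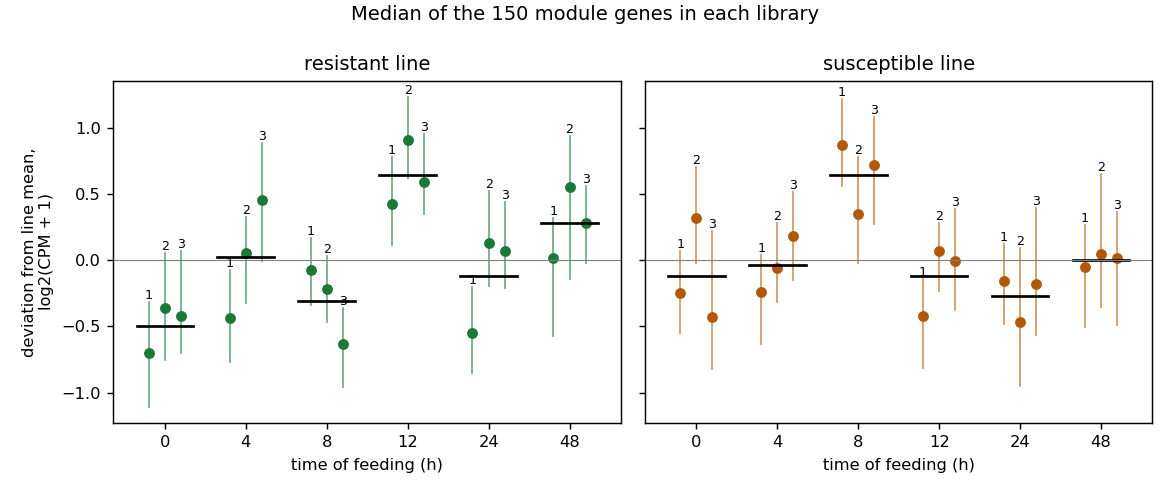
Points give the median deviation from the line mean over the 150 module genes in each library (log2 scale) against feeding time, with quartiles over genes as thin lines, replicate numbers above them and group means as black bars. Resistant 4 h libraries span -0.44 to 0.46, nearly as far as the resistant 8 and 12 h means lie apart.

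Between replicates the genes of the module moved together. This was measured in the 15 libraries of the 5 groups outside score and range, as deviations from each group's mean. The mean correlation between pairs of module genes was 0.28, and 77.0% of the 11175 pairs were above 0. Over all 14949 genes the mean correlation was 0.00087. Against the sum of the other 149 genes, 137 module genes had a positive correlation and 96 (64.0%) reached 0.5, with a median of 0.61. Of the 14799 genes outside the module, 21.5% reached 0.5 against the module's sum, with a median of 0.01. These are correlations over 15 libraries that share group means, and genes are not independent replicates, so they are given as a description. The measure was chosen after the data had been seen. With each of the 5 groups left out in turn the mean correlation of the module was 0.23 to 0.31.

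**Figure D4:**
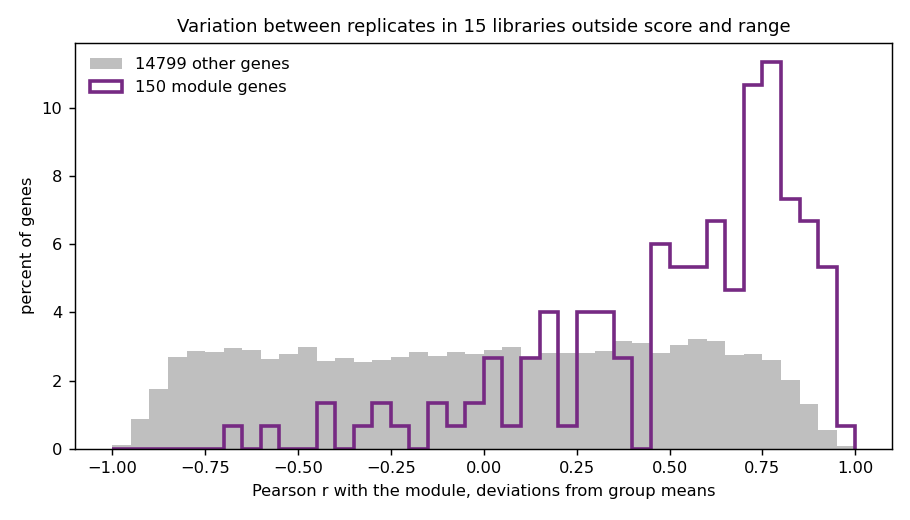
Percent of genes by their Pearson correlation with the module over 15 libraries outside score and range, from deviations from group means; each module gene is compared with the sum of the other module genes. Module genes gather at a median of 0.61, while the 14799 other genes spread widely around 0.01.

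The same axis ran through the rest of the transcriptome. In these 15 libraries the first principal component of the deviations of all 14949 genes, scaled per gene, held 28.9% of their variance. On it 132 of the 150 module genes lay on 1 side, where 49.9% of all genes lay. The set chosen by the same rule with 8 and 12 h exchanged lay opposite, with 22 of its 150 genes on the side of the module. Genes of that set correlated with the module's sum at a median of -0.65, and 95 of them were at -0.5 or below. Their own mean correlation with each other was 0.33, so co-variation between replicates was not particular to the module. In resistant 4 h replicate 1, where the module was at -0.44, the exchanged set was at 0.78, and in replicate 3, where the module was at 0.46, it was at -0.44. The library with the highest value of the module had more counts than the lowest in the susceptible 24 and 48 h groups, and fewer in the other 3 groups. The part of depth in this axis, and the part of this axis in the 8 and 12 h pattern, were not tested.

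The deviations within groups were also larger in the module. In the same 5 groups, the standard deviation between replicates had a median of 0.53 on the log2(CPM + 1) scale, with quartiles of 0.39 and 0.69. Genes outside the module with the same floor had a median of 0.24, with quartiles of 0.17 and 0.36. The score rests on differences between means of 3 libraries, which genes that vary more between replicates reach more easily. The larger spread is therefore not read as a trait of this module, and it is not given for the exchanged set.

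The 8 and 12 h libraries were also split, so that sets chosen anew could be read in libraries left out of that choice. The rule was applied without replicate 1, 2 or 3 of the 8 and 12 h groups, which gave 62, 73 and 70 genes of the module among the 150 chosen. The 4 libraries left out, 1 per line and time, were then compared. With replicate 1 left out, the resistant 12 h library was above the 8 h library in 100 of 150 genes and the susceptible 8 h library above the 12 h library in 132. With replicate 3 left out these counts were 137 and 105. With replicate 2 left out they were 143 and 73, so the susceptible difference was not seen in that pair of libraries, with a median of -0.01 (log2). Both directions held together in 92, 71 and 97 genes, which is 61.3, 47.3 and 64.7%. Over all genes with the floor in each case the shares were 29.1, 22.6 and 29.3%. Each of these reads sets 1 library against 1, and genes that move together between replicates are not independent, so it carries no test. Most genes of each set lay outside the module, so the shares describe these sets and not the module.

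The genes of the module spanned the usual levels of leaf transcripts. Mean CPM ran from 2.04 to 660 in the resistant line, with a median of 18.6, and from 2.31 to 930 in the susceptible line, with a median of 19.5. Genes outside the module with the same floor had medians of 25.1 CPM in both lines. Per length, the 112 module genes with a deposited FPKM had a median of 10.6 FPKM in each line, beside 11.4 and 10.8 FPKM in the 10854 other genes with one. Their length, derived from the ratio of counts to FPKM, had a median of 1824 bases against 2225. In 107 genes the line means differed by less than 2-fold, while 25 were more than 2-fold higher in the resistant and 18 in the susceptible line. Shares of all genes with the floor are not given for these counts, so they are not read as a trait of the module. The 150 IDs lay on 146 scaffolds. Among the 4 scaffolds with a pair of module genes, no pair had consecutive gene numbers, so the module was not a run of neighbouring genes.

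Comparisons between groups other than 8 and 12 h used edgeR's quasi-likelihood test on all 23719 genes that passed the filter on low counts. All 150 module genes were among them. The fit held all 36 libraries, so the 8 and 12 h libraries also entered its estimate of the spread. In fits of only the groups compared, 4, 6 and 7 module genes passed in the susceptible line at 4, 24 and 48 h, and 43 between lines at 4 h. Shares over all genes are not given for those fits, so the counts are not set against a background. The threshold was an adjusted p of 0.05 (Benjamini-Hochberg over all genes tested). In the susceptible line, whose 0, 4, 24 and 48 h groups counted only towards the floor on CPM, 5 to 8 genes of the module passed per comparison. At 4 h against 0 h 3 rose (2.0% of the module) and 4 fell (2.67%), where 3.51% of all genes tested rose and 4.11% fell. At 24 h 1 rose (0.667% of the module) and 4 fell (2.67%), where 3.36% of all genes rose and 3.68% fell. At 48 h 2 rose (1.33% of the module) and 6 fell (4.0%), where 4.20% of all genes rose and 5.11% fell. Among the 14948 tested genes with the same floor on CPM, 5.12% rose and 6.02% fell at 4 h, 4.90% rose and 5.14% fell at 24 h, and 5.91% rose and 7.31% fell at 48 h. The 3 comparisons share the 0 h libraries. In each, 149 of the 150 genes reached the floor without the groups compared, and the counts over them were equal to those given. DESeq2 called 15 module genes at 4 h (7 higher, 8 lower), 12 at 24 h (2 higher, 10 lower) and 12 at 48 h (4 higher, 8 lower). Its shares over all genes are not given, so no excess is read from these counts. The median fitted change of the module was 0.08 at 4 h, -0.18 at 24 h and 0.14 at 48 h (log2), where that of genes with the floor lay between -0.01 and 0.00. The counts were small and moved with single libraries. At 4 h, where 7 genes passed, 3 did without susceptible 0 h replicate 3 or 4 h replicate 3, and 4 did without 4 h replicate 1 or 2. Rises outnumbered falls there without 0 h replicate 2 (6 and 2), without 4 h replicate 1 (3 and 1) and with limma on FPKM (7 and 2). At 24 h 3 passed without 24 h replicate 3 and 9 without replicate 1. At 48 h 12 passed without 0 h replicate 2, with 7 rises and 5 falls, 5 passed without 48 h replicate 2, and 4 without 0 h replicate 1 or 48 h replicate 3.

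The largest rise without overlap between groups was that of Sme2.5_16651.1_g00001 at 24 h. It went from 10.6, 14.0 and 10.4 CPM at 0 h to 28.6, 42.6 and 53.5 CPM, a change of 1.83 ± 0.47 (log2 fold change ± SE; edgeR adjusted p = 0.015). This call was lost without 0 h replicate 1 or 3 or without 24 h replicate 3 (edgeR adjusted p of 0.066, 0.063 and 0.076), and over 11 alternatives the adjusted p was 0.0017 to 0.076. Sme2.5_02035.1_g00002 rose at 4 h, from 52.4, 90.3 and 38.4 CPM to 160, 146 and 234 CPM, by 1.58 ± 0.38 (log2; edgeR adjusted p = 0.0092). It did not pass without 0 h replicate 3, without 4 h replicate 3 or in the fit of only the groups compared (edgeR adjusted p of 0.068, 0.051 and 0.051), and 12 alternatives spanned 0.00069 to 0.068. In both genes the groups did not overlap, which the rule for naming genes required.

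Of the 2 largest falls without overlap, that of Sme2.5_00641.1_g00007 at 24 h was ended by none of the 12 alternatives. The gene went from 3.21, 15.7 and 4.27 CPM at 0 h to 0.266, 0.565 and 0.261 CPM, a change of -4.39 ± 0.73 (log2; edgeR adjusted p = 0.00021; 1.5e-09 to 0.035 over the alternatives). Without 0 h replicate 2, at 15.7 CPM, the change was -3.36, and limma on log2(FPKM + 1) gave -1.93. Its 8 h libraries stood at 35.9, 15.9 and 19.4 CPM, all above 24 h. Sme2.5_03307.1_g00007 had 16.7, 7.37 and 0.662 CPM at 0 h and no count in the 48 h libraries, at least 270-fold lower against a floor of 3 counts over the group (edgeR adjusted p = 0.023). This ID was irregular, with 3.10, 18.1 and 59.5 CPM at 24 h, and 6 of 12 alternatives ended the call (edgeR adjusted p up to 0.15), among them the fits without 0 h replicate 1 and without each 48 h library.

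In the resistant line the 4 h change is given as a description, because the 0 h group entered the rule as part of the range and held the lowest resistant mean in 89 genes. In the same fit 26 genes were past the threshold as higher at 4 h than at 0 h and 4 as lower, beside 6.50 and 6.75% of all genes tested and 9.09 and 9.82% of those with the floor. Nothing is read from these counts. Without resistant 4 h replicate 3, the library with the highest median of the module in its group, they were 3 and 3. Without 4 h replicate 2 they were 17 and 2, without 0 h replicate 1 they were 10 and 5, and in the fit of only the groups compared 1 and 2.

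Sme2.5_13488.1_g00001 was at 0.543, 2.57 and 5.95 CPM at 0 h and at 9.92, 51.8 and 148 CPM at 4 h in the resistant line. The 4 h libraries followed the same order as the median of the module, and the correlation of this gene with the other module genes was 0.91. Sme2.5_02465.1_g00002 was at 0.429, 2.62 and 3.36 CPM at 0 h and at 4.69, 17.6 and 17.5 CPM at 4 h. In both genes the 4 h libraries lay above those at 0 h, which the rule for naming genes required. The first gene did not pass the threshold in 1 of 11 alternatives and the second in 4 of 12.

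Lower at 4 h were Sme2.5_03307.1_g00007, with 4.72, 166 and 4.17 CPM at 0 h and 0.106, 0.318 and 2.05 CPM at 4 h, and Sme2.5_01332.1_g00002. The latter was at 3.40, 25.1 and 29.3 CPM at 0 h and at 0.0265, 0.116 and 1.44 CPM at 4 h. Replicates of both genes lay far apart, as in the 0 h library at 166 CPM of the first. Resistant replicates of the second also differed at 8 h, with 25.8, 3.94 and 24.4 CPM. The first did not pass the threshold in 4 of 12 alternatives and the second in 6 of 12.

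The difference of the 4 h change between lines also contains the resistant 0 h group and is a description for the same reason. No gene of the module passed edgeR's test of this interaction, where 0.126% of all genes tested passed as higher and 0.143% as lower (0.161 and 0.214% of those with the floor). At an unadjusted p under 0.05 there were 18 genes, DESeq2 called 3 and limma on FPKM called 1. Shares over all genes are not given for these counts, so nothing is read from them. A 4 h change of the module that differs between lines was not shown gene by gene with 3 libraries per group.

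Between lines at 4 h, the groups compared counted only towards the floor. There 25 module genes (16.7%) were higher in the resistant and 19 (12.7%) in the susceptible line. Of all genes tested 19.1% were higher in the resistant and 22.3% in the susceptible line, and of those with the floor 19.8 and 17.7%. Together 44 module genes passed. Among the 147 module genes that reached the floor without these groups, 25 and 18 passed. The median fitted difference of the module was 0.32 (log2, resistant over susceptible), against 0.02 over genes with the floor. Without resistant 4 h replicate 3 the counts became 13 and 22, so that library turned which line had more of the higher genes.

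**Figure D5:**
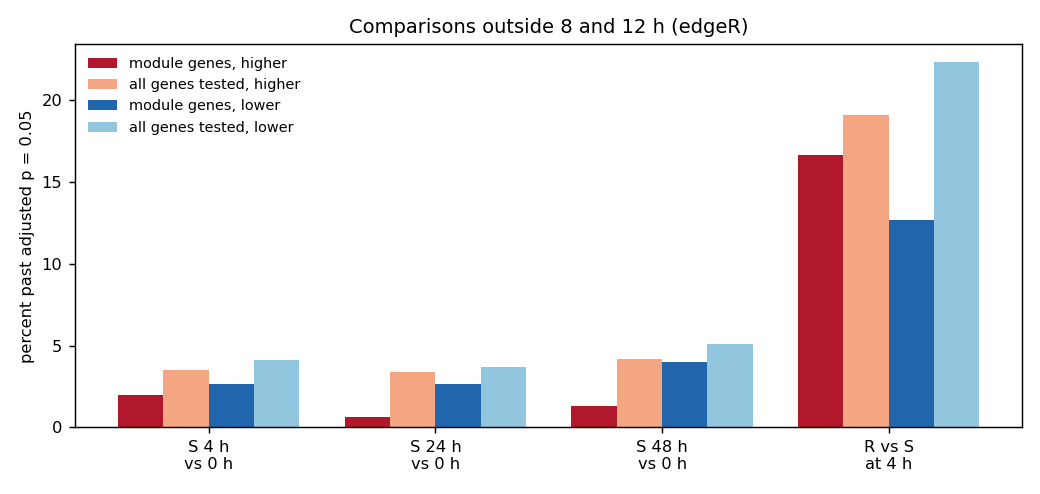
Bars give the percent of the 150 module genes and of all 23719 genes tested that passed edgeR's test, as higher or as lower, in 4 comparisons (R, resistant line; S, susceptible line). In the susceptible line 0.667 to 4.0% of module genes passed per direction. Every module bar is below the bar of all genes beside it, without a test of that difference. Module genes varied more between replicates than other genes with the floor (median SD 0.53 against 0.24, log2 scale), so nothing is read from this order.

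The 4 genes named for this comparison passed in all 12 alternatives run for each. Sme2.5_03183.1_g00006 was at 5.20, 4.77 and 12.2 CPM in the resistant and at 631, 530 and 1162 CPM in the susceptible line at 4 h (-6.71 ± 0.70, log2; edgeR adjusted p = 2.3e-08; up to 0.00080 over 12 alternatives), with -7.31 without resistant 4 h replicate 3. Sme2.5_20915.1_g00001 was at 4.40, 5.38 and 13.0 CPM against 134, 224 and 79.0 CPM (-4.26 ± 0.59, log2; edgeR adjusted p = 2.0e-06; up to 0.0031 over 12 alternatives), with -4.93 without that library.

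In the other direction, Sme2.5_03583.1_g00009 was at 67.1, 82.9 and 286 CPM in the resistant and at 8.52, 8.89 and 18.6 CPM in the susceptible line (3.6 ± 0.86, log2; edgeR adjusted p = 0.0014; up to 0.018 over 12 alternatives). Without resistant 4 h replicate 3, at 286 CPM, the difference was 2.61. Sme2.5_00712.1_g00009 was at 40.9, 20.3 and 6.53 CPM against 3.71, 2.67 and 4.32 CPM (2.66 ± 0.66, log2; edgeR adjusted p = 0.0021; up to 0.026 over 12 alternatives). Without resistant 4 h replicate 1, at 40.9 CPM, the difference was 1.87. In this gene resistant 4 h replicate 3 was the lowest library, opposite to the module, and its correlation with the other module genes was -0.26.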

How the data were processed

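Per gene ID, the authors deposited estimated counts, given as whole numbers, and an FPKM table that holds fewer IDs, with 1 column per library. Per the submitters' processing notes the tools included HTSeq 0.6.1 and FastQC; aligner and build are not given in the sources used here. Setting counts against FPKM in 6730 IDs where both moved in proportion (within 0.05, natural log), 93.7% of 1188 counts from 1 to 5 exceeded the implied value by less than 1 (tolerance 0.05), so the deposited estimated counts were taken as rounded up. The 3945 rows without an ID (4.46 to 7.28% of counts) were left out. Floors cover counting error only, while the SE printed with fold changes rest on the spread between libraries.

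The members, the lists and the rule for naming genes were chosen with earlier results of these data known. Tests used edgeR 4.0.16 in R 4.3.3 (quasi-likelihood, filterByExpr, TMM, 1 mean per group, all 36 libraries); p-values measure the spread between libraries. SE were derived from the F statistic. CPM use filtered, TMM-scaled library sizes, with a pseudocount of 1 on the log2 scale. Named were the 2 genes with the highest score and no overlap, and per kind of comparison the 2 largest rises and falls among genes past the threshold with no overlap and a group mean that reached 5 CPM. Alternatives included DESeq2 1.42.0 and limma 3.58.1 on log2(FPKM + 1) of the deposited FPKM. Scripts were tested on simulated data. Chi-square per gene between replicates was 36.7 to 225, so each library counted as 1 sample.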

Additional observations from a re-analysis of the deposited data

Results flagged for a closer look

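Rows of the count table without a gene ID stood outside the comparisons. Of 1149 such rows with at least 2 CPM in each line, 522 met the range condition and 14 reached the score of the last gene of the module, or 2.68%, against 2.43% (150 of 6166) among rows with an ID.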

How the results depend on the processing

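Both the list of genes and the counts of calls within it depended on the processing. Of the 150, 83 were chosen again with total counts in place of TMM, 74 with medians of the 3 libraries, 47 without the range condition and 63 from FPKM, where 112 had a value; the other 5 settings gave 117 to 145. Without 1 library 93 (resistant 8 h replicate 3) to 143 were chosen again, and 25 genes in each of the 21 such runs. DESeq2 called 15 module genes in the susceptible line at 4 h, 12 at 24 h and 3 for the interaction. Fits of only the groups compared called 4 in the susceptible and 3 in the resistant line at 4 h, and limma on FPKM called 1 for the interaction. With 1 library left out, the counts were 3 to 8, 3 to 9 and 4 to 12 in the susceptible line at 4, 24 and 48 h, 6 to 39 in the resistant line, 35 to 47 between lines and 0 to 2 for the interaction. High susceptible 8 h means numbered 84 to 99 genes and resistant 12 h means above the range 81 to 110. The fitted changes of the genes named for comparisons outside 8 and 12 h kept their direction in the alternatives run for them; the 2 genes named for the 8 and 12 h pattern were not refitted. Counting only genes that reached the CPM floor without the groups compared, an alternative chosen after seeing the data, gave 7, 5, 8, 43, 30 and 0 calls in the order given for the block below. The cause of these shifts was not tested, and shares over all genes under the alternatives are not given. The labels share replicate numbers, and same-numbered libraries correlated at -0.21 to 0.36 across genes. With 3 libraries per group this cannot settle whether the numbers pair libraries, and the main fits did not use them. With a replicate block 6, 5, 8, 44, 30 and 0 genes passed in the order susceptible 4, 24 and 48 h, between lines, resistant 4 h and interaction. Held-out counts and the correlation within the module moved by less than 1.5 times under other scalings.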
